A study of Mus musculus with 8 samples.

Results

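Integrins are the cell surface receptors that hold cells to the extracellular matrix, and laminins are the matrix proteins that build the basement membrane under an epithelium. The genes of both families were read from bulk RNA-seq of whole prostates of male NOD mice, an inbred strain (NOD/ShiLtJ) with spontaneous autoimmune disease. The 4 etanercept mice (etanercept 17, 19, 50 and 52) had received 4 mg/kg of the TNF-antagonist etanercept, a soluble TNF receptor, and the 4 control mice (control 1, 3, 65 and 69) had received PBS. Both were injected into the peritoneum 2 times a week over 5 weeks, both were 30 weeks old at harvest, and diabetic and non-diabetic animals were pooled in the study. The members are the protein-coding genes whose GENCODE M21 symbol names an integrin alpha subunit, an integrin beta subunit or a laminin chain. They are 37 of the 54532 rows of the count table: 18 integrin alpha genes, 8 integrin beta genes and 11 laminin chain genes. The symbol pattern matched 31 of them as written, and 6 with lettered names (Itgad, Itgae, Itgal, Itgam, Itgav and Itgax) matched once letter case was ignored.

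An integrin works as a heterodimer of 1 alpha and 1 beta subunit, and the alpha subunit largely sets the ligand. Collagen, laminin, and proteins with the arginine-glycine-aspartate motif such as fibronectin each have their own alpha subunits, and leukocytes carry further ones that bind adhesion molecules on other cells. A laminin is a heterotrimer of 1 alpha, 1 beta and 1 gamma chain. In the prostate, basal epithelial cells stand on laminin through integrins and hemidesmosomes, and smooth muscle cells are wrapped in a basement membrane of their own.

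Each library held 13760669 to 25178942 counts, and the members together took 0.119% to 0.197% of it. Androgen-dependent prostate genes were measured in all mice, with Pbsn (probasin) at 1094 to 9172 CPM (counts scaled to library size, with TMM factors). The mice differed widely in secretory genes of single lobes, with Sbp, the spermine-binding protein of the ventral lobe, at 1547 to 225760 CPM. Control 3 stood apart by skeletal muscle genes (Myh4 at 352.5 CPM, at most 1.27 CPM elsewhere) and etanercept 17 by seminal vesicle genes (Svs2 at 69757 CPM, at most 2374 CPM elsewhere), so the fit was also run without both. The skeletal muscle genes Ckm, Mylpf and Tnnt3 were also highest in control 3. Acta1 of the same tissue was not, at 948.1 CPM in control 3 and 1288 CPM in etanercept 52. In whole tissue, fewer cells of a type and less RNA per cell cannot be told apart.

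Levels of different genes were compared as TPM, which divide the counts by exon length before scaling each library to the same sum. Itgb1, the beta subunit shared by the collagen, laminin and fibronectin receptors, had the highest level of the 37 genes, at a mean of 251 TPM ± 89.2 (SD, n = 8). Its lowest mouse (153 TPM) lay above the highest mouse of the next gene (76.6 TPM), and it held 69.1% of the TPM of the 8 beta genes. Itgb5, a partner of the alpha-v subunit, followed at 62.5 TPM ± 10.3, and Lamb2, a beta chain of mature basement membranes, at 38.4 TPM ± 9.23, with overlapping ranges over the mice. Among alpha subunits, the epithelial laminin receptor gene Itga3 (30.6 TPM ± 12.4), the fibronectin receptor gene Itga5 (26.2 TPM ± 14.7), the laminin receptor gene Itga6 (18.97 TPM ± 8.30) and Itgav (15.2 TPM ± 5.32) led, and their ranges overlapped. Lamc1, the gamma chain gene of most laminins, was at 25.01 TPM ± 9.27. Lama5 (11.9 TPM ± 3.62) was the leading laminin alpha chain gene, with 57.4% of the TPM of the 5 alpha chain genes, and Lamb2 held 82.4% of that of the 3 beta chain genes.

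**Figure D1:**
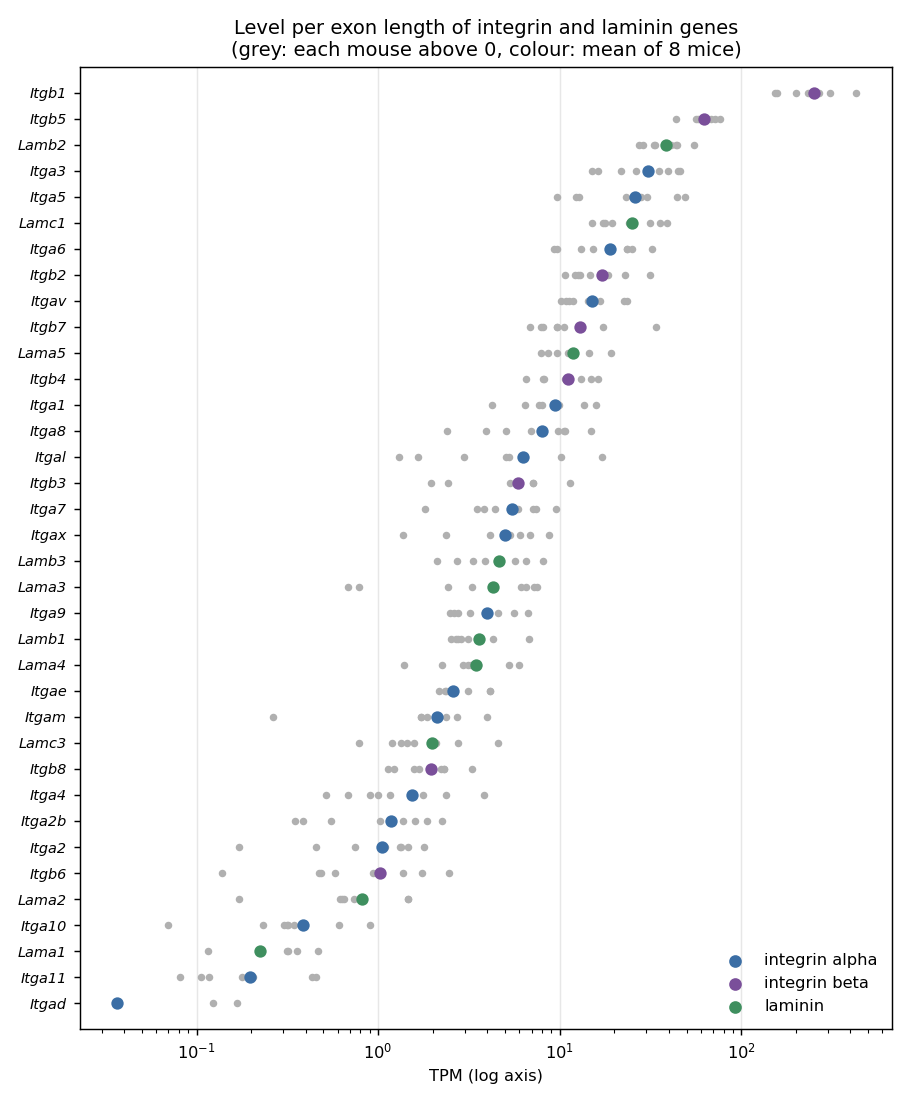
Level of the genes in TPM on a log axis, with grey points for the mice above 0 and a coloured point for the mean of the 8 mice (blue integrin alpha, purple integrin beta, green laminin). Itgb1 sits alone at the top with a mean of 251 TPM, and Itgad lies at the bottom, with counts in 2 control mice.

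The order of levels depended on the length used. With the longest transcript in place of all exon bases, Itga6 (31.6 TPM) ranked above Itga3 (28.6 TPM). At the low end were Itga10 (0.387 TPM), Lama1 (0.224 TPM), Itga11 (0.197 TPM) and Itgad. Itgad had 5 counts in control 3, 5 in control 69 and 0 in the other 6 mice. Itga11 had at most 20 counts in a mouse, and these 2 genes did not pass the filter on low counts, which left 35 members among 15472 tested genes. Itgam and Itga10 are uncertain, since 68.7% and 33.5% of their exon bases overlap another gene on the same strand.

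The comparison of etanercept with control asked whether blocking TNF goes with another set of matrix receptors or basement membrane chains in the prostate. No member passed a Benjamini-Hochberg adjusted p of 0.05 in the quasi-likelihood fit of edgeR, where 0.0% of all 15472 tested genes did. The smallest adjusted p of a member was 0.739 in edgeR. In DESeq2, 0.113% of 18664 genes passed the adjusted threshold, 0 of 36 members among them, with a smallest adjusted p of 0.505. The differences are therefore described by their size and by the unadjusted p, which is not a call.

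At an unadjusted p of 0.05 in edgeR, 3 of the 35 members passed, beside 6.62% of all tested genes. Itga1 and Itga7 were higher with etanercept, beside a background of 2.99% in that direction, and Itgb7 was lower, beside 3.63%. DESeq2 had 5 of 37 members at an unadjusted p of 0.05, beside 5.84% of 23393 genes. Those higher were Itga1, Itga7 and Itga2b (background 2.24%), and those lower were Itgb7 and Itgb6 (background 3.6%). Itgb7 was the 1 member of 35 whose groups did not overlap in CPM, beside 4.94% of all tested genes. The median log2 fold change of the 35 members was 0.05, beside -0.01 over all tested genes, with 18 members above 0 and 17 below. Control 3 weighed on this balance: without it the median was 0.30 with 22 above 0 and 13 below (-0.003 over all tested genes), and it was 0.28 without control 3 and etanercept 17. Without any other single mouse it lay between -0.07 (etanercept 52) and 0.16 (etanercept 19). In DESeq2, which also fitted the 2 members with low counts, the median was -0.07. For 21 of the 35 the log2 fold change in edgeR was smaller than its own standard error.

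**Figure D2:**
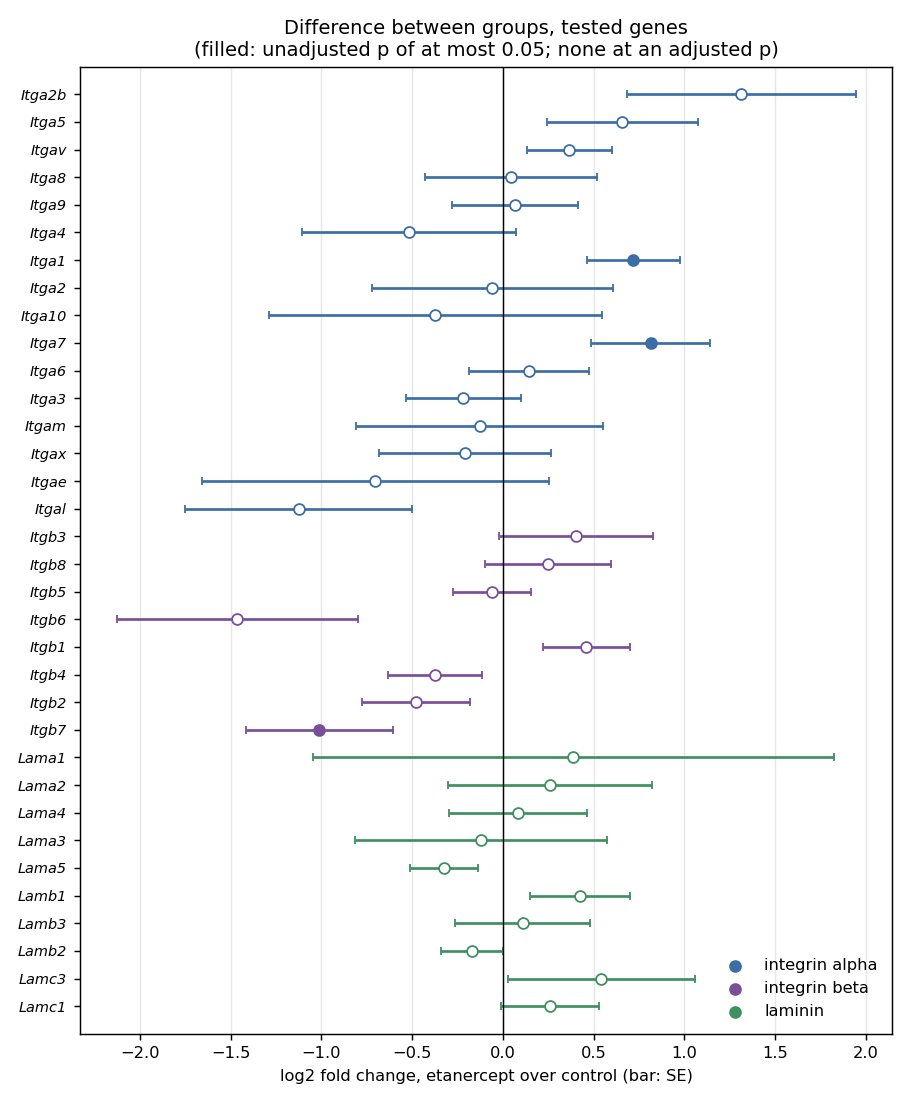
Log2 fold change of etanercept over control with its standard error for the tested genes, ordered by role (blue integrin alpha, purple integrin beta, green laminin), with filled points for an unadjusted p of at most 0.05. Itga1, Itga7 and Itgb7 are filled, the 6 leukocyte genes from Itgam to Itgal and Itgb2 to Itgb7 lie left of 0, and the laminin genes lie within 1 log2 unit of 0.

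The promoters of 3 of these genes are shown as the reference sequence from which their transcripts start, since Itga1 and Itgb7 differed at an unadjusted p in opposite directions and Itga2b and Itgb7 are genes of blood cells. Each is the RefSeq window (GRCm38.p6) of 250 bases before to 50 bases after the start, on the minus strand. The Itga1 window lies at chr13:115101915-115102214, the Itga2b window at chr11:102469834-102470133 and the Itgb7 window at chr15:102231886-102232185. Capitals mark GAGGAA on either strand, the core bound by PU.1, a transcription factor of myeloid and lymphoid cells.
Itga1: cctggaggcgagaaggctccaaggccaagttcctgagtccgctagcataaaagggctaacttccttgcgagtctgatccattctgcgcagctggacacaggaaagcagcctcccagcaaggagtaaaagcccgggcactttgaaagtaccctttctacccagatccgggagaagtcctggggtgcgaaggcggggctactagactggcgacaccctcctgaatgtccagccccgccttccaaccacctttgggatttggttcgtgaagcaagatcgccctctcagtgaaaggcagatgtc
Itga2b: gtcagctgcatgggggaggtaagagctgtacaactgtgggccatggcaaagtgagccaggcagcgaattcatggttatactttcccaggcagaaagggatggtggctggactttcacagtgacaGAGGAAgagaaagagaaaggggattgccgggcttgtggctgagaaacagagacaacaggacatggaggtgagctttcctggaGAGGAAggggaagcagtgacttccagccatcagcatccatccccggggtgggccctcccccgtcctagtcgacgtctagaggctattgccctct
Itgb7: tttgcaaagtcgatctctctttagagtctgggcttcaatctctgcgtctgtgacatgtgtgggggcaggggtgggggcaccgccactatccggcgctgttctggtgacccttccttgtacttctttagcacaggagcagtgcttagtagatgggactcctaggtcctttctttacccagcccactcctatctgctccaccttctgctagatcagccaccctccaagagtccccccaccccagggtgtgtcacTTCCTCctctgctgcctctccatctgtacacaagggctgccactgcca

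The window of Itga1 holds none of the motifs searched, that of Itga2b holds GAGGAA 2 times and that of Itgb7 holds it 1 time, on the other strand. The other motifs searched, also on both strands, were a GC box, a TATA box, an AP-1 site and the first letters of an NF-kB site, each spelled out beside its share. The table had 26 windows for 23 members. GAGGAA was in 14 of the 26 member windows (53.8%) and in 28.3% of all 32851 windows, also in those of laminin genes such as Lamb2 and Lama5. The GC box GGGCGG was in 12 of the 26 (46.2%) against 35.7% of all windows. The AP-1 letters TGACTCA were in 2 (Itga9 and Itgax, 7.69%), against 5.2%. The TATA box letters TATAAA were in 0 of the 26, against 13.6% of all windows. The NF-kB letters GGGACTTTC were in 0 of the 26, against 0.353% of all windows. The median GC content was 58.8% in member windows and 52.7% in all windows. These letters are a description of the windows, and no binding was measured.

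Among collagen receptors, Itga1, the alpha subunit of a collagen receptor of smooth muscle and other stromal cells, had the higher values with etanercept. Its gene (ENSMUSG00000042284) lies at chr13:114953096-115101964 in GRCm38. It was measured at 34.2, 78.5, 57.8 and 61.9 CPM in control 1, 3, 65 and 69 and at 106.8, 70.5, 91.7 and 112.8 CPM in etanercept 17, 19, 50 and 52. Of the etanercept mice, 3 lay above every control mouse, and etanercept 19 lay below control 3. The log2 fold change was 0.72 (SE 0.256), or 1.64-fold, with an unadjusted p of 0.0196 and an adjusted p of 0.739 in edgeR. Leaving out each mouse gave 0.51 to 0.89. Itga1 has the longest exon sequence of the members (18599 bases), and with the trend of fold change on gene length removed the log2 fold change was 0.55 (unadjusted p = 0.0636). Itga2, the neighbouring gene 20995 bases away and a collagen receptor of epithelia and platelets, averaged 3.27 CPM ± 1.79 in control and 3.14 CPM ± 1.59 in etanercept mice (SD, n = 4 each). The chondrocyte gene Itga10 was at 0.179 to 1.83 CPM over the 8 mice.

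Among the laminin receptor alpha subunits, Itga7, known from muscle, had higher values with etanercept. Its gene (ENSMUSG00000025348) lies at chr10:128933818-128958282. It was at 13.5, 15.9, 18.5 and 7.58 CPM in control 1, 3, 65 and 69 and at 25.2, 14.01, 28.7 and 29.5 CPM in etanercept 17, 19, 50 and 52. Again 3 etanercept mice lay above every control mouse, and etanercept 19 lay among the controls. The log2 fold change was 0.81 (SE 0.329), or 1.76-fold, with an unadjusted p of 0.0338 and an adjusted p of 0.739 in edgeR, and 0.61 to 1.01 when single mice were left out. With the length trend removed its log2 fold change was 0.70 and its unadjusted p 0.0606, so that under this setting 0 members were higher at 0.05.

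The epithelial laminin receptors overlapped between the groups. Itga3 was at 112.0, 66.9, 102.0 and 44.45 CPM in the control and 94.9, 61.5, 45.8 and 77.3 CPM in the etanercept mice. Itga6, which pairs with Itgb4 in hemidesmosomes, averaged 69.9 CPM ± 21.9 in control and 77.3 CPM ± 31.7 in etanercept mice. Itgb4 itself was at 45.5, 25.1, 44.2 and 40.3 CPM in control and 19.2, 28.2, 37.1 and 35.1 CPM in etanercept mice, a log2 fold change of -0.38 (SE 0.261) with overlapping groups that was -0.21 without etanercept 17.

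**Figure D3:**
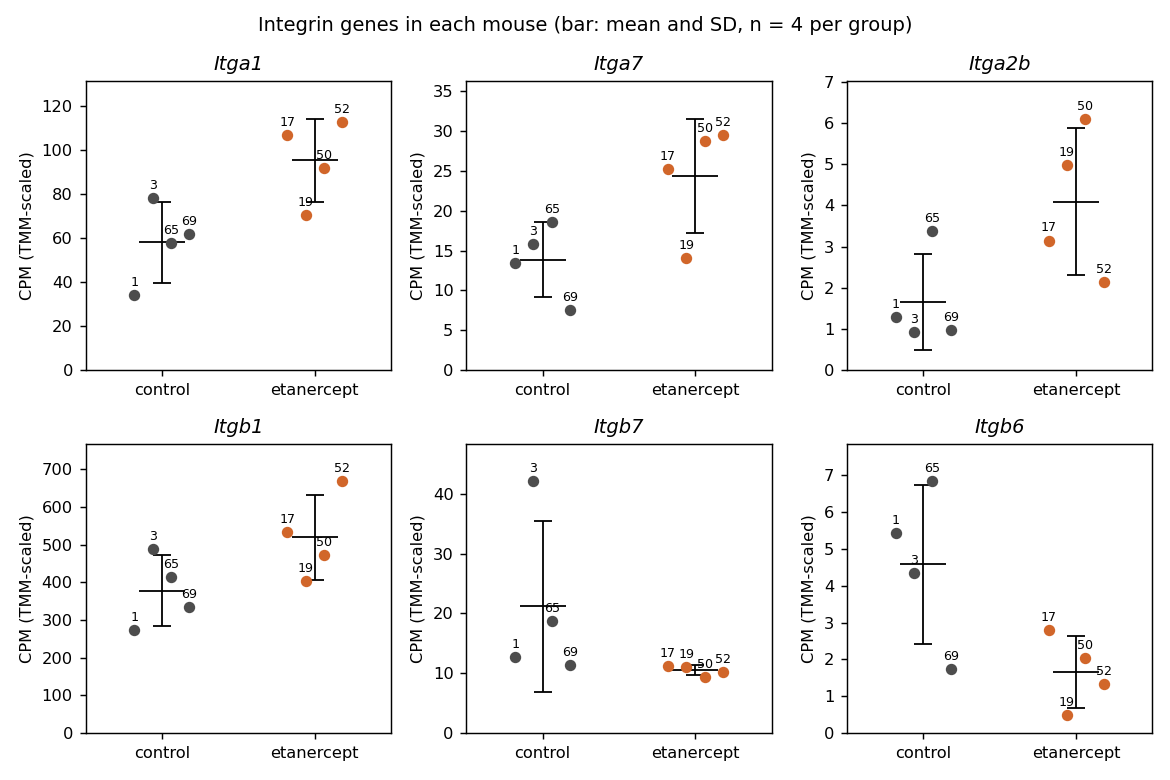
CPM of 6 integrin genes in each mouse, with the animal number beside each point and a bar for the mean and SD of 4 mice per group. For Itga1 and Itga7 etanercept 19 is the lowest etanercept mouse, and for Itgb7 the 4 etanercept mice sit between 9.39 and 11.2 CPM while control 3 reaches 42.1 CPM.

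Smooth muscle markers had higher values beside Itga1 and Itga7. The 6 markers (Acta2, Myh11, Cnn1, Tagln, Des and Smtn) all had log2 fold changes above 0, and Acta2, Cnn1 and Tagln had an unadjusted p under 0.05. Of all tested genes, 2.99% were higher at that p. Without etanercept 19 there were 5 of 6 at that p, and 2 or 3 without any other single mouse. Their summed level was 3126 to 6388 CPM in control and 5677 to 11276 CPM in etanercept mice, and 0 of the 6 were at 0 in all mice. Itga7 followed the mean log2(CPM + 1) of these markers over the 8 mice, with Pearson's r = 0.747 (permutation p = 0.0312, adjusted p = 0.0974) and Spearman's rho = 0.929 (permutation p = 0.00223, adjusted p = 0.0469). Without control 1 and etanercept 52, the mice farthest from the median, r was 0.904. Itga8 had r = 0.610 with the same markers (permutation p = 0.106, adjusted p = 0.202) and rho = 0.595 (permutation p = 0.132, adjusted p = 0.253), with r = 0.462 without those 2 mice. The adjustment was over 21 relations, and values within a group of 4 were not computed. Pairings were permuted over both groups together. Since Itga7 and the markers were both higher on average with etanercept, their relation was not separated from the group difference. The part of smooth muscle content in the Itga1 and Itga7 values was not tested.

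The common beta subunit gene Itgb1 (chr8:128685654-128733200) was at 272.3, 488.9, 413.3 and 334.3 CPM in control and 533.4, 403.1, 471.2 and 667.5 CPM in etanercept mice. The groups overlapped through control 3 and control 65. Its log2 fold change was 0.46 (SE 0.239), with an unadjusted p of 0.0844 and an adjusted p of 0.782 in edgeR, and it was 0.30 without etanercept 52.

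The 4 alpha subunits that read the arginine-glycine-aspartate motif had log2 fold changes above 0, with a median of 0.51, and none of the 4 passed an unadjusted p of 0.05 in edgeR. Without control 1, control 69, etanercept 17 or etanercept 52, 3 of the 4 were above 0, with medians of 0.34 to 0.40. Itga5 was at 27.3, 61.5, 58.3 and 24.8 CPM in control and 91.8, 29.9, 56.9 and 92.4 CPM in etanercept mice, a log2 fold change of 0.66 (SE 0.415) in which etanercept 17 and 52 were high. Itgav, which pairs with several beta subunits that activate latent TGF-beta, averaged 62.2 CPM ± 12.2 in control and 80.1 CPM ± 23.6 in etanercept mice (0.37, SE 0.234), and its log2 fold change was 0.20 without etanercept 17. Itga8, a receptor gene of smooth muscle and mesenchyme, had 25.2 CPM ± 18.2 and 26.01 CPM ± 5.60.

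Itga2b, the alpha subunit of the platelet fibrinogen receptor, had few counts. It was at 1.30, 0.934, 3.38 and 0.984 CPM in control and 3.15, 4.97, 6.10 and 2.15 CPM in etanercept mice, from 14 to 102 counts a mouse. Control 65 lay above etanercept 17 and 52. The log2 fold change was 1.31 (SE 0.63), with an unadjusted p of 0.0652 and an adjusted p of 0.759 in edgeR, and an unadjusted p of 0.0337 and an adjusted p of 0.616 in DESeq2. Of 5 platelet and megakaryocyte markers, 2 passed the filter and Gp1bb was at 0 in every mouse. The summed level of the 5 was 5.50 to 14.8 CPM in control and 4.66 to 8.56 CPM in etanercept mice. Itga2b did not track their mean (r = -0.307, permutation p = 0.479, adjusted p = 0.628; rho = -0.286, permutation p = 0.501, adjusted p = 0.657; r without control 3 and etanercept 52 = 0.009).

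Of the beta partners of alpha-v, Itgb6 had lower values with etanercept. This epithelial subunit (chr2:60598292-60722643) was at 5.42, 4.33, 6.83 and 1.74 CPM in control and 2.80, 0.481, 2.03 and 1.32 CPM in etanercept mice. It had few counts, from 9 to 150 a mouse. Control 69 lay among the etanercept mice, and the others did not overlap. The log2 fold change was -1.46 (SE 0.665), with an unadjusted p of 0.0532 and an adjusted p of 0.743 in edgeR and an unadjusted p of 0.0247 and an adjusted p of 0.57 in DESeq2. Without control 3 and etanercept 17 it was -1.86. The 6 luminal epithelial markers were also below 0 in log2 fold change (median -0.28), with 0 at an unadjusted p of 0.05 in edgeR and 1 (Krt18) in DESeq2. Their summed level was 1954 to 2866 CPM in control and 1665 to 2312 CPM in etanercept mice, and 0 of the 6 were at 0 in all mice. The part of epithelial content in the Itgb6 values was not tested. Itgb5 was at 67.5, 97.4, 99.7 and 141.2 CPM in control and 102.6, 98.7, 101.7 and 86.0 CPM in etanercept mice, with the etanercept mice inside the control range. Itgb3, the partner of Itga2b and Itgav, had 12.8 CPM ± 4.68 and 16.95 CPM ± 7.64, and Itgb8 had 8.74 CPM ± 2.04 and 10.4 CPM ± 3.71.

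All 6 tested leukocyte integrin genes had log2 fold changes below 0, with a median of -0.59. Without control 3 the median was -0.29, and Itgam and Itgax were above 0. Without control 3 and etanercept 17 it was -0.27, with Itgam at 0.40 and Itgax at 0.11, and without etanercept 17 alone it was -0.38 with all 6 below 0. Itgb7, which forms the gut-homing receptor with Itga4 and the receptor of intraepithelial T cells with Itgae, was the 1 of the 6 at an unadjusted p of 0.05. Its gene (ENSMUSG00000001281) lies at chr15:102215995-102231944. It was at 12.7, 42.1, 18.7 and 11.3 CPM in control 1, 3, 65 and 69 and at 11.2, 11.1, 9.39 and 10.3 CPM in etanercept 17, 19, 50 and 52. The etanercept mice lay close together, and control 69 was only just above the highest of them. The log2 fold change was -1.01 (SE 0.406), with an unadjusted p of 0.0324 and an adjusted p of 0.739 in edgeR. The exact two-sided permutation test gave p = 0.0286, the smallest that the 70 assignments of 8 mice allow. Groups that do not overlap always reach this value, so it adds nothing to the separation. Control 3 carried much of the difference: without it the log2 fold change was -0.44, and without control 3 and etanercept 17 it was -0.47 (unadjusted p = 0.148).

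Itgb2, the beta subunit of most leukocyte integrins, was at 16.8, 42.9, 27.2 and 19.3 CPM in control and 18.99, 16.1, 19.4 and 21.6 CPM in etanercept mice, a log2 fold change of -0.48 (SE 0.296). Control 3 was again the highest mouse, and without it the log2 fold change was -0.15. Its lymphocyte partner Itgal was at 15.0, 50.1, 26.2 and 5.67 CPM in control and 17.8, 4.23, 9.69 and 12.8 CPM in etanercept mice, a log2 fold change of -1.13 (SE 0.624) that was -0.49 without control 3. Itgal and Itgb2 went together over the 8 mice, with r = 0.832 (permutation p = 0.00642, adjusted p = 0.045) and rho = 0.643 (permutation p = 0.0962, adjusted p = 0.224). Without control 3 and control 65 r was 0.347, so the relation rests on those 2 mice.

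The myeloid genes Itgam (0.579 to 8.93 CPM over the 8 mice) and Itgax (3.415 to 18.7 CPM) overlapped between the groups. Itgae was at 229, 75, 105 and 97 counts in the control mice and 132, 88 and 55 counts in etanercept 19, 50 and 52, but at 0 of 17739635 counts in etanercept 17, which allows a share of up to 1.69e-05%. Leaving etanercept 17 out, the control range was 5.001 to 8.28 CPM and the etanercept values were 7.06, 5.26 and 3.81 CPM. Itga4, which also pairs with Itgb1, averaged 10.97 CPM ± 8.89 in control and 7.65 CPM ± 3.97 in etanercept mice. Control 3 was its highest mouse at 23.9 CPM. The log2 fold change of Itga4 was -0.52, but 0.21 without control 3 and 0.47 without control 3 and etanercept 17. The related Itga9 was at 8.71, 19.2, 13.7 and 10.997 CPM in control and 21.8, 9.47, 12.3 and 11.5 CPM in etanercept mice, with overlapping groups.

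T cell and macrophage markers had lower values beside these genes. All 6 T cell markers had log2 fold changes below 0, with Cd3e, Cd3g, Cd8a and Lck at an unadjusted p under 0.05. Of all tested genes, 3.63% were lower at that p. The summed level of the 6 markers was 52.4 to 144.8 CPM in control and 42.3 to 62.4 CPM in etanercept mice. Control 3 was the highest mouse, with control 1 next at 98.7 CPM, and without control 3 all 6 stayed below 0 with 3 at an unadjusted p under 0.05. Without control 3 and etanercept 17 the 6 were below 0 with 1 at that p, and the median was -0.82 in place of -1.06. Of all tested genes, 483 of 15927 were lower at that p without control 3, and 513 of 15693 without both mice. All 7 macrophage markers were also below 0, 3 of them at an unadjusted p under 0.05, with 310.0 to 957.9 CPM in control and 243.7 to 335.3 CPM in etanercept mice. Control 3 was again the highest, with control 65 next at 493.1 CPM, and without control 3 there were 5 of 7 below 0 and 1 at an unadjusted p under 0.05, as there was without etanercept 50 and with the length trend removed. Without control 3 and etanercept 17 there were 4 of 7 below 0 and 0 at that p, and the median was -0.32 in place of -0.79. The 5 markers of all leukocytes and the 5 of B cells were all below 0 in log2 fold change (medians of -0.29 and -0.79), and 4 of 5 dendritic cell markers were (median -0.20), with 0 of each list at an unadjusted p of 0.05. Without control 3 these medians were 0.20, 0.12 and 0.09. In that fit 1 marker of all leukocytes was higher at an unadjusted p of 0.05, beside 455 of 15927 tested genes. None of the T cell and macrophage markers was at 0 in all mice, while the neutrophil gene S100a8 was. Itgb2 and the mean of 5 markers of all leukocytes had r = 0.777 (permutation p = 0.0324, adjusted p = 0.0974) and rho = 0.690 (permutation p = 0.0694, adjusted p = 0.208), with r = 0.696 without control 3 and etanercept 17. The part of leukocyte content in the integrin values was not tested.

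Adipocyte markers also differed in level beside the members. Their summed level was 32.1 to 483.4 CPM in control and 0.815 to 20.5 CPM in etanercept mice, and of the marker lists this was the one whose groups did not overlap. All 5 had log2 fold changes below 0 (median -3.46), 4 of them at an unadjusted p under 0.05 and 0 at an adjusted p of 0.05 in edgeR. Of all tested genes, 3.63% were lower at that unadjusted p. In DESeq2, 1 of the 5 (Retn, the gene of the adipokine resistin) passed an adjusted p of 0.05, beside 0.113% of 18664 genes. Without control 3 the median was -2.47. Without control 3 and etanercept 17 it was -2.09, with all 5 below 0 and 2 of them at an unadjusted p of 0.05, beside 513 of 15693 tested genes. The part of fat tissue in the integrin and laminin values was not tested.

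**Figure D4:**
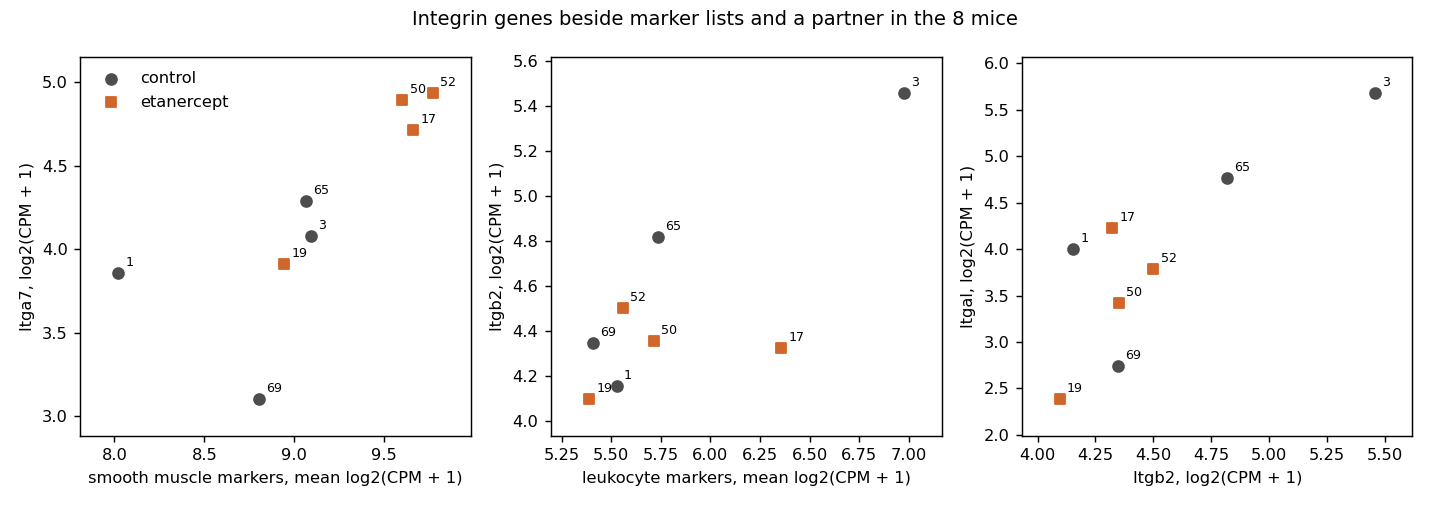
Left, Itga7 against the mean of 6 smooth muscle markers; middle, Itgb2 against the mean of 5 leukocyte markers; right, Itgal against Itgb2, all in log2(CPM + 1) with a point per mouse (grey circles control, orange squares etanercept, animal number beside each). Itga7 is higher in the mice with higher smooth muscle markers, over both groups (rho = 0.929), and control 3 lies at the upper right of the other plots.

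No laminin gene passed an unadjusted p of 0.05 in edgeR, and the 11 had 7 log2 fold changes above 0 and 4 below, with a median of 0.11. The median was 0.47 without control 3 and 0.42 without control 3 and etanercept 17. It was -0.05 without control 69 and -0.07 without etanercept 52, each with 6 of the 11 below 0. Lama5, the alpha chain of mature epithelial and vascular basement membranes, was at 59.4, 60.2, 85.3 and 57.4 CPM in control and 53.1, 44.4, 48.7 and 63.3 CPM in etanercept mice. Control 65 was the high mouse, and etanercept 52 lay above 3 of the control mice. Its log2 fold change was -0.32 (SE 0.186, adjusted p = 0.802 in edgeR), and with the length trend removed its unadjusted p was 0.03. Without control 65 the log2 fold change was -0.19. The mesenchymal and endothelial gene Lama4 had 17.7 CPM ± 9.99 and 18.7 CPM ± 4.50, the muscle gene Lama2 had 5.31 CPM ± 3.86 and 6.35 CPM ± 2.11, and Lama1, an embryonic chain, was at 0 counts in control 1 and etanercept 17 and at 10 to 28 counts in the others. Endothelial markers, beside Lama4, were below 0 in 6 of 6 (median -0.58), with 0 at an unadjusted p of 0.05. Their summed level was 64.9 to 162.6 CPM in control and 51.7 to 89.9 CPM in etanercept mice, and without control 3 there were 3 of 6 below 0 (median -0.05). Lama4 and the mean of these markers had r = 0.648 (permutation p = 0.0864, adjusted p = 0.181) and rho = 0.50 (permutation p = 0.216, adjusted p = 0.378). Without control 3 and etanercept 52 r was -0.205, so the relation rests on those 2 mice. Lama2 and the mean of 6 fibroblast markers had r = 0.721 (permutation p = 0.0537, adjusted p = 0.125) and rho = 0.619 (permutation p = 0.115, adjusted p = 0.241), and r was 0.156 without the same 2 mice. The part of endothelial and fibroblast content in these values was not tested.

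Lamb1, Lamb2, Lamc1 and Lamc3 overlapped between the groups. Lamb2 was at 88.3, 111.2, 129.7 and 104.8 CPM in control and 114.3, 86.8, 82.7 and 101.7 CPM in etanercept mice. Lamc1 was at 69.6, 116.3, 77.8 and 64.5 CPM in control and 136.8, 70.5, 72.9 and 113.2 CPM in etanercept mice, with etanercept 17 and 52 and control 3 high. Lamb1, a chain of developing and vascular basement membranes, had 13.3 CPM ± 2.34 and 17.8 CPM ± 5.75 (log2 fold change 0.42, SE 0.276), and Lamc3 had 4.24 CPM ± 2.27 and 6.18 CPM ± 3.21 (0.54, SE 0.514). Without etanercept 52 the log2 fold changes were 0.18 for Lamb1 and 0.13 for Lamc3. That of Lamc3 was 0.96 without control 3 and 0.36 without control 69.

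Lama3 and Lamb3, chains of the epithelial anchoring laminin, had wide ranges within both groups. Lama3 was at 30.3, 15.7, 31.6 and 3.82 CPM in control and 32.8, 12.8, 4.19 and 25.2 CPM in etanercept mice. Control 69 and etanercept 50 were the low mice, so that both groups held high and low values. Lamb3 averaged 12.7 CPM ± 5.36 in control and 13.7 CPM ± 4.89 in etanercept mice.

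Over the 8 mice, Lama3 went with Pbsn, with r = 0.971 (permutation p = 0.00112, adjusted p = 0.0234), rho = 0.810 (permutation p = 0.0218, adjusted p = 0.114) and r = 0.929 without control 69 and etanercept 50. This relation was chosen after the values were seen, and both genes come from the same library. Pbsn did not pass the adjusted threshold between the groups in edgeR (adjusted p = 0.997), and the part of the lobes in each sample was not tested.

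**Figure D5:**
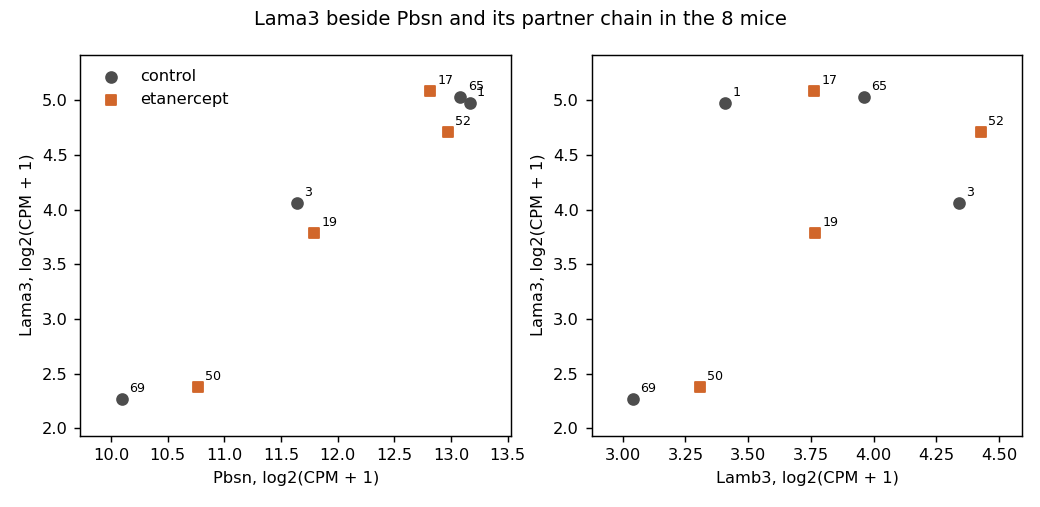
Left, Lama3 against Pbsn; right, Lama3 against Lamb3, in log2(CPM + 1) with a point per mouse (grey circles control, orange squares etanercept, animal number beside each). Control 69 and etanercept 50 sit low in both Lama3 and Pbsn (r = 0.971), and the points of Lama3 against Lamb3 scatter more widely (r = 0.597).

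Chains that assemble together did not keep a fixed ratio over the mice. The log2 ratio of Lama3 to Lamb3, in TPM, went from -1.79 in etanercept 50 to 0.96 in control 1. Lama3 and Lamb3 had r = 0.597 (permutation p = 0.121, adjusted p = 0.212; rho = 0.429, permutation p = 0.299, adjusted p = 0.483; r = 0.322 without control 69 and etanercept 52). The hemidesmosome partners Itga6 and Itgb4 had r = -0.113 (permutation p = 0.794, adjusted p = 0.875; rho = -0.143, permutation p = 0.752, adjusted p = 0.790; r = 0.207 without control 3 and etanercept 17). Itga8 with Itgb1 had r = 0.750 (permutation p = 0.0325, adjusted p = 0.0974; rho = 0.690, permutation p = 0.0694, adjusted p = 0.208; r = 0.832 without control 1 and etanercept 52). For Lama4 with Lamb1, Itgam with Itgb2, Itgae with Itgb7, Lama5 with Lamc1, Itga3 with Itgb1 and Itgb4 with basal markers, r lay between -0.065 and 0.540 (permutation, adjusted p from 0.270 to 0.875) and rho between 0.024 and 0.667 (adjusted p from 0.218 to 0.977). Of 10 such ratios, 0 differed between the groups in exact permutation tests, and the adjusted p was 0.8286 for each. The smallest unadjusted p was 0.114, for Lama5 over Lamc1, whose log2 ratio was -0.76 ± 0.459 in control and -1.32 ± 0.351 in etanercept mice (SD, n = 4 each).

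The genes that work with integrins inside the cell were counted next. Of 35 activators and cytoplasmic linkers, 7 were higher and 0 lower at an unadjusted p of 0.05, beside 2.99% and 3.63% of all tested genes, and 0 passed the adjusted threshold. The median log2 fold change of the list was 0.16. The 7 became 4 without control 1, 4 without control 65 and 1 without etanercept 52, and without etanercept 52 the median was 0.004. Fermt2, the kindlin that activates integrins in stromal cells, averaged 53.7 CPM ± 10.6 in control and 92.5 CPM ± 13.3 in etanercept mice (log2 fold change 0.79, adjusted p = 0.739 in edgeR). Vcl (vinculin), which links integrin adhesions to actin, had 32.7 CPM ± 15.2 and 67.5 CPM ± 17.1, and Tes, a focal adhesion protein gene, had 183.6 CPM ± 48.0 and 289.9 CPM ± 59.8. The smooth muscle markers given above also had log2 fold changes above 0. Their summed level in etanercept 19 (5677 CPM) lay below that in control 3 (6388 CPM), and their relation to the linker genes was not tested.

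Of 17 tested hemidesmosome components and laminin co-receptors, 1 was higher and 2 were lower at an unadjusted p of 0.05. Of all tested genes, 2.99% were higher and 3.63% lower at that p. The counts of this list rested on single mice, with 0 higher without control 65, etanercept 17 or etanercept 52, and 0 lower without control 1, control 3, etanercept 19 or etanercept 50. Dmd (dystrophin), which ties muscle cells to laminin, averaged 20.1 CPM ± 5.77 in control and 32.1 CPM ± 9.93 in etanercept mice. Bcam, a laminin receptor of the immunoglobulin family, had 91.2 CPM ± 32.4 and 57.2 CPM ± 7.60, and Col17a1, the hemidesmosome collagen, had 14.9 CPM ± 8.18 and 5.01 CPM ± 3.65. Basal epithelial markers had lower values beside Col17a1. All 5 had log2 fold changes below 0, Krt15 and Trp63 at an unadjusted p under 0.05, with a median of -0.63. Of the 5, 0 were at that p without control 1 (median -0.47), control 3, etanercept 19 or etanercept 50, and all 5 were without control 69, a fit in which 11.4% of all tested genes were at that p. They had a summed level of 166.1 to 377.0 CPM in control and 126.7 to 226.9 CPM in etanercept mice and 0 of the 5 at 0 in all mice. The part of basal cell content in these values was not tested.

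Of 19 basement membrane partners of laminin, 2 were higher and 0 lower at an unadjusted p of 0.05, beside 2.99% and 3.63% of all tested genes. The median log2 fold change was 0.45. The 2 higher became 6 without control 3, where 455 of 15927 tested genes were higher, and 5 without etanercept 19. They became 1 without control 1, control 65 or etanercept 50 and 0 without etanercept 52. Without control 1 there was also 1 lower, beside 447 of 15855 tested genes. The median was 0.27 without control 1 and 0.20 without etanercept 52. Col4a6, a collagen IV chain, averaged 12.98 CPM ± 3.99 in control and 25.9 CPM ± 10.8 in etanercept mice, and Sparc, a collagen-binding matrix protein gene, had 229.7 CPM ± 56.5 and 397.1 CPM ± 148.6. Col4a2, next by p, had 62.6 CPM ± 23.0 and 100.2 CPM ± 27.1. Of 26 tested ligands of integrins outside the basement membrane, 0 passed an unadjusted p of 0.05 in edgeR or DESeq2, and the median was -0.11 with 12 of 26 above 0. Without control 3 the median was 0.18 with 21 of 26 above 0 and 2 higher at that p, and without control 3 and etanercept 17 it was 0.15 with 20 of 26 above 0 and 3 higher. Without control 69 there were 3 lower at that p, beside 956 of 15975 tested genes. The 3 with the smallest p were Tgfb1 (31.5 CPM ± 14.3 and 20.6 CPM ± 3.71), Vwf (24.0 CPM ± 12.4 and 14.6 CPM ± 4.39) and Col1a1 (47.5 CPM ± 25.5 and 95.4 CPM ± 58.0).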

How the data were processed

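The authors extracted RNA from frozen prostates with TRIzol, had poly(A)-selected libraries (NEBNext Ultra II) sequenced as paired reads of 150 nt, and deposited raw counts per gene and mouse. The submitters' processing notes name fastp, STAR 2.6.1d, featureCounts 1.5.0-p3, DESeq2 1.26.0 and the build mm10. The strand setting and annotation of the counting are not given in the sources used here, so overlapping genes are uncertain.

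Genes were named and measured with GENCODE M21 (GRCm38). The members and all gene lists were chosen with earlier results of these data known, so an unadjusted p is no independent evidence. The counts were fitted by quasi-likelihood in edgeR 4.0.16 under R 4.3.3. Library sizes were scaled by TMM, genes were kept by filterByExpr at its minimum count of 10, and p was adjusted by Benjamini and Hochberg's method over the 15472 genes kept. The study's own test, DESeq2 (here 1.42.0), was an alternative. Other alternatives were the scaling, no filter, fold changes with the lowess trend (span 0.3) on length or GC removed, and leaving out mice. A further one was a term for the lower animal numbers (control 1 and 3, etanercept 17 and 19) against the higher. No label names that split as a batch. The biological coefficient of variation was 0.547. CPM are TMM-scaled, TPM divide by union exon length, and correlations use log2(CPM + 1) with permutation p over all pairings of 8 mice. A count of 0 is given with the share that 3 counts make, which covers counting error only. The code was tested on simulated counts.

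All members are named but 1, which is not reported here; it stays in the counts, sums and adjustments. Values in every mouse were given for members at an unadjusted p of 0.05 in edgeR or DESeq2, members whose groups do not overlap and the member with the highest TPM of each role. Of each related list the 3 genes with the smallest p were named, with group means and SDs. Values per mouse of other members, and the list values with mice left out, were chosen after the data were seen.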

Additional observations from a re-analysis of the deposited data

Results flagged for a closer look

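Of 74 groups of 4 mice examined (37 genes in 2 groups, in log2(CPM + 1)), 3 had 1 mouse far from the others by Dixon's ratio of the gap to the range, a test that chance passes in about 1 in 20 groups. In the control mice, control 69 was lowest for the collagen receptor gene Itga2 (ratio 0.874), at 0.637 CPM against 3.73 to 4.52 CPM, and for Itgb3 (ratio 0.836), at 5.96 CPM against 13.9 to 16.3 CPM. Control 65 was highest for the laminin gene Lama5 (ratio 0.88), at 85.3 CPM against 57.4 to 60.2 CPM.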

How the results depend on the processing

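No member passed an adjusted p of 0.05 in any of the 25 alternatives, and the 14 members whose log2 fold change was at least its standard error kept its sign in all 25. The 2 members higher at an unadjusted p of 0.05 were 1 with library size alone, 0 with the length trend removed, 1 without control 3 and etanercept 17, and 1 to 4 when single mice were left out (in edgeR 1 without control 1 or 69 or etanercept 17, 50 or 52). The 1 lower member was 2 in DESeq2, 2 with library size alone, 3 with the length trend removed, and 0 to 3 when single mice were left out (in edgeR 0 without control 3 or etanercept 19, 50 or 52, 2 without control 1 and 3 without control 69, where 956 of 15975 tested genes were lower beside 561 of 15472 with all mice; in DESeq2 0 without control 3). Of the 21 relations, the 3 at an adjusted Pearson p of 0.05 became 0 to 5 when single mice were left out (0 without etanercept 19 or 50, 5 without control 69); fewer mice leave fewer pairings. With the GC trend removed Itgb6 passed as lower (unadjusted p = 0.040), Itgb7 missed at 0.0577 with a log2 fold change of -0.89 (-1.01 without the removal), and Itga2b joined Itga1 and Itga7 as higher. Itgb6 also passed and Itgb7 missed without control 3 and etanercept 17, and without etanercept 17 alone. The median of the hemidesmosome list was -0.032 in DESeq2. Lower genes at an unadjusted p went from 0 to 1 among the activators and linkers in DESeq2 and with the length trend removed, and from 0 to 1 among the ligands with the length trend removed. Correlations near 0 changed sign. Itga6 with Itgb4 had r = 0.065 and Itga3 with Itgb1 r = 0.098 with library size alone. With single mice left out, r went from -0.089 to 0.356 for Lama5 with Lamc1, -0.288 to 0.215 for Itga6 with Itgb4, -0.011 to 0.266 for Itgae with Itgb7, -0.351 to 0.443 for Itga3 with Itgb1, -0.243 to 0.278 for Itgb4 with basal markers and -0.425 to 0.132 for Itga2b with platelet markers. The differences of log2 ratios went from -0.673 to 0.187 for Lama3/Lamb3, -0.501 to 0.064 for Lama4/Lamb1 and -0.479 to 0.138 for Itga8/Itgb1, and that of Itgae/Itgb7 was -1.368 with 0.5 added to counts, which brings in etanercept 17 at 0. The cause of the other changes was not tested. No paired analysis was possible because the groups share no animal number. Itga10, Itga11, Itgad and Lama1 had at most 29 counts in a mouse, a depth at which only large differences are detectable.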
